A study of Mus musculus with 32 samples.

Results

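Keratin messages were followed in 4 lines of mouse embryonic fibroblasts (MEFs). The 9 genes described are Krt5, Krt6a, Krt7, Krt8, Krt14, Krt16, Krt17, Krt18 and Krt19, taken by symbol from a count table of 39017 genes that holds 53 keratin rows, 51 of them with at least 1 read. They were selected on their measured counts, because keratins separated the wtATM line from the others in earlier results of these data. Every difference between wtATM and another line is therefore given as a description, without a test. The study measured RNA in 32 libraries: knock-out lines of ATM and of ATMIN with a wild-type line for each, called wtATM and wtATMIN, all given 1 µM aphidicolin (APH) or DMSO for 4 h or 24 h, with 2 libraries in each of the 16 groups. ATM is a kinase that signals DNA breaks, ATMIN is a protein that interacts with it, and APH slows DNA replication by inhibiting replicative polymerases. DMSO, the solvent, is the control treatment. The labels describe each knock-out by a single line and give no allele, deleted exon or way of deletion, and no age, strain or passage. Genotype and line therefore cannot be told apart. Nothing in the labels says that the 2 libraries of a group came from separate cultures, so p-values measure the spread between these libraries, which may be technical.

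Keratins are the intermediate filament proteins of epithelial cells. A filament is built from pairs of an acidic type I chain (here Krt14, Krt16, Krt17, Krt18 and Krt19) and a basic type II chain (here Krt5, Krt6a, Krt7 and Krt8). Krt5 with Krt14 marks the basal layer of stratified epithelia such as skin, Krt6a, Krt16 and Krt17 are known as the stress or wound keratins of skin, and Krt8 with Krt18 is the pair of simple, single-layered epithelia, joined there by Krt7 and Krt19. Fibroblasts build their intermediate filaments mainly from vimentin.

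The type II genes lie together on chromosome 15, next to the type I gene Krt18, and the other type I genes lie on chromosome 11. In GRCm38 coordinates (the build the submitters call mm10), Krt6a is at chr15:101689910-101694307, Krt5 at chr15:101707070-101712898, Krt8 at chr15:101996698-102004482, all on the minus strand, and Krt18 is at chr15:102028180-102032027 on the plus strand. Krt14 is at chr11:100203162-100207548, Krt16 at chr11:100246091-100248902, Krt17 at chr11:100256217-100261029 and Krt19 at chr11:100140810-100148665, all on the minus strand. Krt7 is at chr15:101411043-101430313 on the plus strand. RefSeq promoter sequence (GRCm38.p6) was matched for 5 of the 9 genes and was not matched for Krt6a, Krt16, Krt17 and Krt19. The bases before the start are shown for Krt5, the basal keratin high in wtATM, and for Krt18, the simple-epithelial keratin near the limit of detection in all lines. The RefSeq starts matched for Krt14, Krt7 and Krt8 lie 1518, 1360 and 140 bases inside the gene as GENCODE draws it, so that the windows before them reach into the gene and are not shown, and 36 such bases were left out for Krt18. Capitals mark CACCTG, the E-box bound by repressors of the Snail and ZEB type, searched on both strands, so that it can read CAGGTG. The Krt5 sequence is chr15:101712906-101713155 (minus strand, 250 bases) and the Krt18 sequence is chr15:102027966-102028179 (plus strand, 214 bases).
Krt5: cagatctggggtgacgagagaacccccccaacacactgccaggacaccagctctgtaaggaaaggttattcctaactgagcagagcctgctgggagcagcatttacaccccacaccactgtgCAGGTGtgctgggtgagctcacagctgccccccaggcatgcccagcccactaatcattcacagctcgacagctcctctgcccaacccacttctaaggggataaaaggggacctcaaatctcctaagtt
Krt18: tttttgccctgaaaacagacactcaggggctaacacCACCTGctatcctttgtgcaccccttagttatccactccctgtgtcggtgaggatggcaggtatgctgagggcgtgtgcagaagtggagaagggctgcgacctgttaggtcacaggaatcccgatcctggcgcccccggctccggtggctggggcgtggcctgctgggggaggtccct
Each holds 1 CACCTG match, whose first base is at -128 from the RefSeq start in Krt5 and at -214 in Krt18. Of 32851 windows of 250 bases, 17.2% hold one, and a match describes letters, not a bound site. TATAAA (core promoter box, in 12.4% of windows), TGANTCA (AP-1 site, in 6.75%), GGGCGG (GC box, in 32.7%) and GGAATG (TEAD site, in 12.6%) were searched likewise and are not among the letters of these windows.

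Sequence also limits what a count of Krt6a means, because its neighbour Krt6b is almost a copy. Of the distinct 50-base stretches of the Krt6a transcript, 48.5% occur in another keratin transcript, most of them in Krt6b. The longest identical run of the 2 coding sequences is 280 bases. The 120 coding bases around its end, bases 254 to 373 counted from the start codon in both genes, are shown with the 3 bases that differ in capitals.
Krt6a: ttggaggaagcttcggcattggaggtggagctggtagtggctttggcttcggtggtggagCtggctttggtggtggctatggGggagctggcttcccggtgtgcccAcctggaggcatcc
Krt6b: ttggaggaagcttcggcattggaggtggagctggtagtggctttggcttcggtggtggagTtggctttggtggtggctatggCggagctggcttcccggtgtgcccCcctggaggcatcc
Reads from such stretches could be assigned to either gene or to neither. The same share was 14.4% for Krt14, 12.4% for Krt16, 7.36% for Krt5 and 3.99% for Krt17, and 0% for Krt7, Krt8, Krt18 and Krt19. Krt5, Krt6a, Krt7 and Krt8 also overlap annotated genes on the opposite strand, and with no strand setting in the sources used here reads of such partners cannot be told apart.

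The libraries held 9321329 to 21020662 counted reads, the fewest in replicate 2 of ATM knock-out cells after 4 h of APH. The 2 libraries of that group also agreed least, with a correlation of log2 CPM across genes of 0.981, against 0.991 to 0.994 in the other groups. Levels are given as CPM, reads scaled to the size of each library after TMM normalization. Atmin was 5.27 ± 1.06 CPM (SD, n = 8 libraries) in the ATMIN knock-out line and 26.6 ± 4.54 in wtATMIN, without overlap. Atm was 34.3 ± 9.33 CPM in ATM knock-out cells and 54.3 ± 8.75 in wtATM, and the ranges overlapped (17.8 to 45.5 and 43.1 to 65.1); a gene count does not show which part of the gene was deleted. All 12 fibroblast markers examined, collagens among them, had more than 3 reads in every line, and vimentin stood at 3392 ± 378 CPM in wtATM.

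Keratin message in wtATM was mainly Krt6a and Krt14. The 9 genes summed to a median of 333 CPM (range 252 to 664) in wtATM, 7.02 (3.99 to 14.9) in the ATM knock-out line, 13.9 (12.6 to 18.4) in wtATMIN and 3.63 (2.27 to 4.13) in ATMIN knock-out cells. Per kb of exon, the order of mean levels in wtATM was Krt6a (92.3 CPM per kb), Krt14 (78.4), Krt16 (8.50), Krt5 (6.06), Krt8 (1.82), Krt17 (1.53), Krt7 (0.31), Krt19 (0.049) and Krt18 (0.031). In this order the ranges over the 8 libraries overlapped between the neighbours Krt6a and Krt14, Krt16 and Krt5, Krt8 and Krt17, Krt17 and Krt7, and Krt19 and Krt18. By line mean, Krt19 led the 9 in the other lines, at 1.77 CPM per kb in the ATM knock-out line, 5.41 in wtATMIN and 0.45 in ATMIN knock-out cells. By group mean it led in all 4 groups of wtATMIN, but not in every group of the knock-out lines. After 24 h of APH, Krt16 led in the ATM knock-out line (3.52 CPM per kb, against 1.33 for Krt19) and in the ATMIN knock-out line (0.35), and after 24 h of DMSO Krt7 led in the latter (0.25). In such bulk libraries, more cells that hold a message and more message in each cell cannot be told apart.

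**Figure D1:**
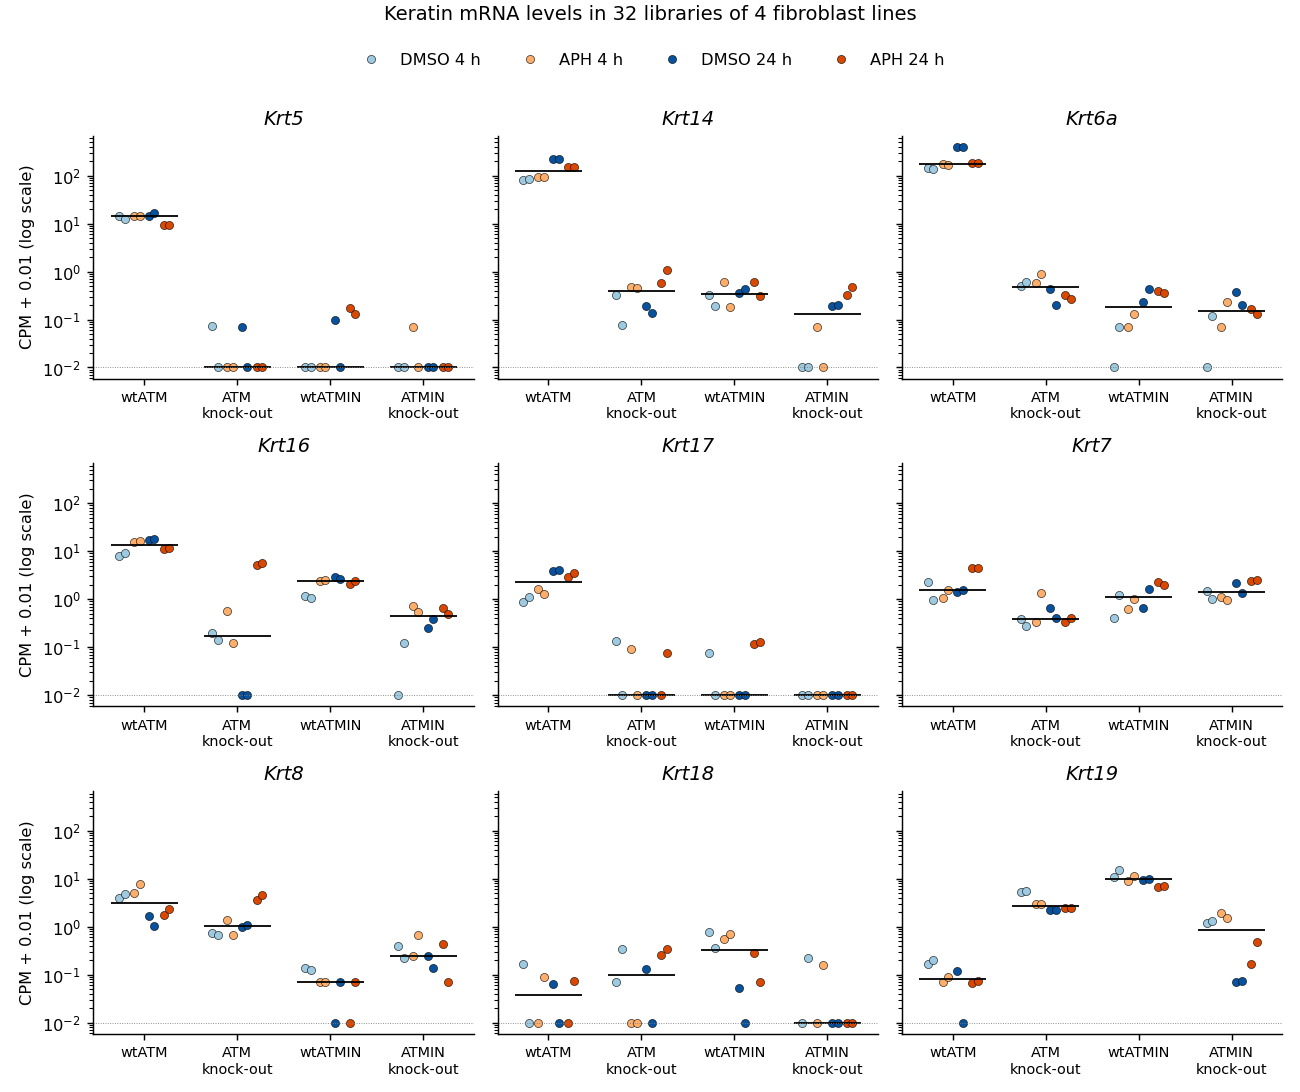
Levels of the 9 keratins in all 32 libraries, as CPM plus 0.01 on a log axis, by line; each point is 1 library, coloured by treatment and time, the black bar is the median of 8 libraries, and points on the dotted line are libraries with no read. Krt5, Krt14, Krt6a, Krt16 and Krt17 of wtATM lie above every library of the other lines, and Krt19 of wtATM lies below those of the ATM knock-out line and wtATMIN.

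The basal pair was present in wtATM and nearly absent elsewhere. Krt5 had 14.4 and 12.6 CPM in the wtATM libraries after 4 h of DMSO, 14.7 and 14.7 after 4 h of APH, 14.6 and 16.8 after 24 h of DMSO, and 9.32 and 9.25 after 24 h of APH. All 8 libraries of the ATM knock-out line together held 2 Krt5 reads, those of wtATMIN 7 and those of the ATMIN knock-out line 1, against 1667 in wtATM. The ratio of wtATM to the ATM knock-out line was 772 (95% counting interval 214 to 6374). For Krt14 the wtATM libraries gave 79.9 and 84.7 CPM (DMSO, 4 h), 92.6 and 94.8 (APH, 4 h), 226 and 220 (DMSO, 24 h) and 154 and 151 (APH, 24 h). The highest Krt14 value of any other library was 1.04 CPM, in the ATM knock-out line after 24 h of APH. The mean Krt14 CPM of wtATM was 348-fold the level over the pooled libraries of the ATM knock-out line. It was 373-fold that of wtATMIN and 886-fold that of the ATMIN knock-out line, pooled likewise.

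The stress keratins followed the same division between lines. Krt6a had 145 and 138 CPM in wtATM after 4 h of DMSO, 172 and 167 after 4 h of APH, 399 and 402 after 24 h of DMSO, and 184 and 179 after 24 h of APH. Its line means were 0.47 ± 0.22 CPM in ATM knock-out cells, 0.20 ± 0.17 in wtATMIN and 0.15 ± 0.11 in ATMIN knock-out cells (SD, n = 8 each). The mean of wtATM was 508-fold or more the level over the pooled libraries of each of these lines. Krt17 in wtATM was 0.88 and 1.10 CPM (DMSO, 4 h), 1.59 and 1.30 (APH, 4 h), 3.85 and 3.95 (DMSO, 24 h) and 2.90 and 3.45 (APH, 24 h). The ATM knock-out line held 4 Krt17 reads, wtATMIN 5 and the ATMIN knock-out line 0, which allows up to 0.022 CPM at 3 reads over its 8 libraries and makes wtATM at least 107-fold higher (counting error only). Krt16 had means of 13.3 ± 3.83 CPM in wtATM, 1.50 ± 2.48 in the ATM knock-out line, 2.13 ± 0.67 in wtATMIN and 0.38 ± 0.25 in ATMIN knock-out cells. The ATM knock-out line had a median of 0.16 CPM, with 0 reads in both libraries after 24 h of DMSO, and its large SD comes from the 2 libraries after 24 h of APH.

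The simple-epithelial keratins did not follow this division. Krt8 averaged 3.56 ± 2.29 CPM in wtATM and 1.71 ± 1.51 in the ATM knock-out line, whose libraries overlapped, and stood at 0.061 ± 0.047 in wtATMIN and 0.30 ± 0.20 in ATMIN knock-out cells. Its type I partner Krt18 was near the limit of detection in all lines, with 5 reads in wtATM, 17 in the ATM knock-out line, 46 in wtATMIN and 6 in ATMIN knock-out cells. The line with the highest mean Krt8 thus held almost no message of its partner. Krt7 averaged 2.22 ± 1.46 CPM in wtATM, 0.51 ± 0.36 in the ATM knock-out line, 1.22 ± 0.69 in wtATMIN and 1.61 ± 0.63 in ATMIN knock-out cells, and wtATM overlapped each of the other lines. Krt19 had its lowest mean in wtATM: wtATM held 11 Krt19 reads (0.091 ± 0.062 CPM), while the means were 3.28 ± 1.35 in the ATM knock-out line, 10.0 ± 2.74 in wtATMIN and 0.83 ± 0.73 in ATMIN knock-out cells.

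Counted over libraries, all 8 of wtATM lay above all 24 others for 5 of the 9 keratins (Krt5, Krt6a, Krt14, Krt16 and Krt17), as they did for 4.23% of the 18484 genes tested, and below all others for none (3.47% of genes). All 9 had passed the filter on low counts, each through the groups in which it was high. Against single lines, wtATM lay wholly above for 5 keratins and below for 1 in the ATM knock-out line (13.3% and 12.7% of genes), above for 6 and below for 1 in wtATMIN (11.4% and 13.7%), and above for 6 and below for 0 in the ATMIN knock-out line (12.2% and 12.1%). The keratin below was Krt19 both times. These counts rest on the contrast that chose the genes and are a description. Of the other keratins, Krt6b followed Krt6a (79.0 ± 36.1 CPM in wtATM, at most 0.24 in any other library), whereas Krt80 was shared by all lines (45.1 ± 14.3, 21.9 ± 9.88, 32.8 ± 19.6 and 30.6 ± 20.4 CPM in wtATM, the ATM knock-out line, wtATMIN and the ATMIN knock-out line), as was Krt10 at 3.19 to 4.76 CPM.

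Because filaments need both chains, the 9 genes were also summed by type per kb of exon. Type I chains made up 45.0% of this sum in wtATM (median of 8 libraries, range 42.7% to 54.4%), and the 2 highest values, 54.1% and 54.4%, were those after 24 h of APH. In wtATMIN the type I share was 97.2% (91.0% to 98.4%), led by Krt19 (5.41 CPM per kb) and Krt16 (1.36). It was 70.3% (64.3% to 84.2%) in the ATM knock-out line and 63.3% (33.3% to 82.0%) in the ATMIN knock-out line, on few reads. These shares hold for the 9 genes only. Summed over all 53 keratin rows (28 of type I and 25 of type II), an alternative chosen after seeing the data, the type I share was 37.0% (34.3% to 46.6%) in wtATM, where the type II gene Krt6b stood at 35.3 CPM per kb, and 66.8% (52.9% to 88.3%) in wtATMIN, where the type II gene Krt80 stood at 5.13 CPM per kb. It was 61.1% (52.2% to 72.6%) in the ATM knock-out line and 33.0% (25.1% to 56.2%) in the ATMIN knock-out line. The share of the 9 also depends on the gene length used: with the length in the authors' deposited tables, 550 bases for Krt19 against 1855 in GENCODE, the median was 84.0% in the ATM knock-out line, and with raw reads it was 37.1% for wtATM, 92.6% for wtATMIN and 36.8% for ATMIN knock-out cells.

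**Figure D2:**
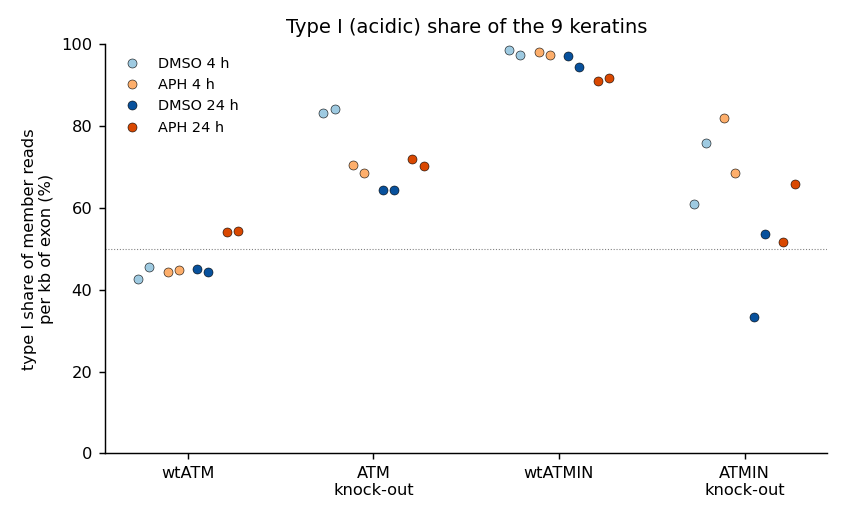
Share of type I chains (Krt14, Krt16, Krt17, Krt18, Krt19) in the summed reads per kb of exon of the 9 keratins, in percent, for each library (points, coloured by treatment and time) by line; the dotted line marks 50%. wtATM libraries lie between 42.7% and 54.4%, wtATMIN libraries between 91.0% and 98.4%.

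Genes that work with keratins were read from lists of markers chosen with results of these data known. Among transcription factors of epithelia, Trp63, the master factor of basal epithelial cells, was 58.1 ± 27.4 CPM in wtATM, 0.19 ± 0.19 in the ATM knock-out line, 3.56 ± 3.57 in wtATMIN and 2.77 ± 2.14 in ATMIN knock-out cells. Klf4, a factor of epidermal differentiation, was 162 ± 12.9 CPM in wtATM and 24.0 to 43.6 on average in the other lines. Other abundant factors of the list did not follow. Klf5 was 14.3 ± 7.99 CPM in wtATM, 17.1 ± 8.28 in the ATM knock-out line, 28.8 ± 17.2 in wtATMIN and 15.2 ± 11.1 in ATMIN knock-out cells. The splicing regulator gene Esrp2 was 2.20 ± 1.32, 3.60 ± 1.20, 7.62 ± 1.29 and 2.52 ± 0.86 CPM in the same order. The 8 keratinocyte differentiation genes in the table summed to 56.4 to 93.5 CPM in wtATM and 0.20 to 16.7 in the other lines. Of these, Sbsn, which encodes a protein of the suprabasal epidermis, averaged 37.3 CPM in wtATM (range 19.6 to 59.7) and 8.19 in wtATMIN. The cornified envelope gene Sprr1b averaged 16.4 ± 5.91 CPM in wtATM and had 1 read in wtATMIN. Sprr1a averaged 6.09 and 2.2 CPM in wtATM and wtATMIN, and Dmkn 7.53 and 0.21. Lor of that list had 3 reads or fewer in wtATM, but not in wtATMIN. Itgb4 and Col17a1, hemidesmosome genes named after their values were seen, averaged 101 ± 40.4 and 21.7 ± 11.5 CPM in wtATM and at most 3.64 and 1.58 in another line. Perp, a desmosome component, averaged 279 ± 114 CPM in wtATM against 5.93, 8.02 and 57.0 in the ATM knock-out line, wtATMIN and the ATMIN knock-out line. The other abundant partners did not follow. The plakin genes Plec and Dst averaged 1750 ± 1057 and 474 ± 110 CPM in wtATM and 1528 ± 888 and 558 ± 67.7 in the ATM knock-out line, and Pkp4, a plakophilin-related gene, ranged from 73.2 to 116 CPM and from 87.0 to 106. In wtATMIN and the ATMIN knock-out line Plec averaged 1185 and 1310, Dst 384 and 372, and Pkp4 85.2 and 68.9 CPM, and for all 3 genes the libraries of wtATM overlapped those of each other line.

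Markers of simple epithelium did not accompany these genes in wtATM. The 18 markers of that list summed to 0.88 to 1.63 CPM in wtATM, with 8 reads of Cdh1 (E-cadherin) and 0 of Epcam, and to 1.20 to 2.45 in the ATM knock-out line. They were highest in wtATMIN, the line with the most Krt19 and Krt18, at 11.3 to 41.9 CPM, mostly the protease inhibitor gene Spint1 (14.1 ± 8.12 CPM), and reached 2.03 to 6.48 in the ATMIN knock-out line. Of mesothelial markers, 7 in the table, Msln was expressed in all lines (282 ± 11.6 CPM in wtATM, 60.1 ± 21.3, 273 ± 29.1 and 209 ± 23.2 in the others), while Wt1 had 0 to 5 reads per line. Bnc1 of that list, which basal keratinocytes also express, was highest in wtATM, at 24.0 ± 10.5 CPM against 0.052 ± 0.083 in the ATM knock-out line, 0.85 ± 0.29 in wtATMIN and 11.4 ± 2.63 in ATMIN knock-out cells. The 9 trophoblast markers summed to 0.32 to 1.63 CPM in wtATM, below the 6.44 to 12.3 of the ATM knock-out line and the 3.79 to 5.71 of wtATMIN, and to 0.57 to 0.98 in the ATMIN knock-out line. Summed ranges in wtATM, the ATM knock-out line, wtATMIN and the ATMIN knock-out line were 31.6 to 45.5, 23.3 to 36.1, 18.6 to 27.6 and 24.0 to 32.4 CPM for 8 blood markers. Adgre1 and Tyrobp of that list had 3 reads or fewer in each line, while the lysozyme gene Lyz2 had 1398 reads in wtATM (8.25 to 17.3 CPM) and 34, 11 and 5 in the other lines. For 5 endothelial markers the ranges were 1.21 to 2.18, 0.067 to 1.20, 0.22 to 1.89 and 0.38 to 1.47. For 5 muscle markers they were 0.83 to 5.19, 0.30 to 4.12, 0.31 to 1.21 and 0.25 to 1.18, with 118 reads of Myod1, a factor of muscle fate, in wtATM and 0, 0 and 1 in the others. For 6 neural markers they were 20.0 to 27.8, 69.7 to 103, 41.1 to 60.9 and 7.29 to 19.2. The fibroblast markers summed to 17664 to 21135, 10233 to 14387, 6674 to 9946 and 14634 to 29085 CPM. The part of other cells in the keratin levels was not tested.

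Among genes without a keratin symbol (Krt and a number), 10 were closest to the mean profile of the 9 members, by the root mean square distance of centred log2(CPM + 0.5) over the 16 group means. They were Prosc (distance 0.20), Zfp419, Cyp3a13, Pla2g5, Gm13544, 1700049E17Rik1, Rhox2h, Psg17, Orai2 and Pcdh17 (0.30). Closest to Krt5 alone were Gm5478 (0.20), Grik1 (0.20) and Yap1 (0.20), the last a transcriptional coactivator at 2986 CPM in wtATM and 134, 138 and 138 CPM in ATM knock-out cells, wtATMIN and the ATMIN knock-out line. Closest to Krt14 were Rhox5 (0.48), Ptprq (0.52) and Sh3tc2 (0.85). Krt8 was nearest to Mfsd9 (0.50), Cdh26 (0.54) and March9 (0.55), and Krt18, whose own profile was nearly flat, to Fxyd6 (0.17), Slc12a4 (0.18) and Fam184b (0.19). These distances are descriptions over 16 group means that share the 4 lines.

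Along the chromosomes, the division did not extend to all neighbours. Gm5478 and Gm5414, annotated genes between Krt75 and Krt6b inside the chromosome 15 cluster, averaged 10.2 ± 2.93 and 10.2 ± 5.26 CPM in wtATM and at most 0.026 on average in another line. They were set apart from the keratins by symbol only. Whether they encode keratins or share reads with them was not tested. The nearest expressed genes that are not keratins outside the cluster, Atg101 (35.4 ± 4.06 CPM in wtATM, 19.3 to 28.9 in the others) and Eif4b (968 ± 144, and 525 to 738), were expressed in every line. On chromosome 11, Eif1, 58856 bases from Krt17, was 332 ± 33.1 CPM in wtATM and 291 to 360 in the others. Gm11598, 2462 bases from Krt16, averaged 10.1 ± 6.25 CPM in wtATM and 4.68 to 9.35 in the others. Gm11560, 207701 bases from Krt19, averaged 60.8 ± 14.0 and 51.7 to 57.1. Gm11597, 21297 bases from Krt14, was low, at 0.99 ± 0.39 CPM in wtATM and 0.058 to 0.41 in the others.

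The questions put by the study's design, the response to APH and its dependence on ATM or ATMIN, lie outside the choice of genes and were tested. Each comparison was fitted over all 18484 genes with edgeR's quasi-likelihood test and Benjamini-Hochberg adjustment. Calls needed an adjusted p under 0.05. After 4 h of APH, 2 of the 9 keratins rose and none fell in wtATM, where 2.82% of all genes rose and 2.76% fell. In the ATM knock-out line 1 fell and none rose (15.4% of all genes fell and 14.0% rose). In wtATMIN 1 rose and none fell (7.25% rose, 7.75% fell), as in the ATMIN knock-out line (9.48% rose, 10.9% fell). Krt16 was called higher in 3 of the 4 lines, in the ATMIN knock-out line on few reads. In wtATM it went from 7.78 and 9.20 to 15.7 and 16.3 CPM, a log2 change of 0.90 ± 0.15 (SE; edgeR adjusted p = 8.46e-05). In wtATMIN it went from 1.16 and 1.07 to 2.37 and 2.47 CPM (1.12 ± 0.27, edgeR adjusted p = 0.00345; 0.0562 without replicate 2 of the DMSO group). The ATMIN knock-out line had 2 reads in the DMSO libraries and 19 in the APH libraries, a ratio of 11.1 (95% counting interval 3.07 to 91.5; edgeR adjusted p = 0.000458). There Krt16 did not reach the filter's minimum of 10 reads, scaled to library size, in 2 of the libraries compared. It was kept through reads of other groups, so the call in the ATMIN knock-out line supports nothing. In all 3 lines with a call both APH libraries lay above both DMSO libraries. In the ATM knock-out line Krt16 was 0.19 and 0.13 CPM in DMSO and 0.56 and 0.11 in APH, which overlapped.

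The other calls at 4 h were Krt6a in wtATM and Krt19 in the ATM knock-out line. Krt6a was 0.26 ± 0.08 higher on the log2 scale in wtATM (edgeR adjusted p = 0.0352), and lost the call without any 1 of the 4 compared libraries (adjusted p 0.0788 to 0.246). Krt19 fell in the ATM knock-out line from 5.28 and 5.52 to 3.01 and 3.01 CPM, a log2 change of -0.84 ± 0.23 (edgeR adjusted p = 0.00503). This comparison uses the shallowest library; without it the adjusted p was at most 0.0363, as without any other 1 of the 4 libraries. Fitted on its 2 groups alone it was 0.0813. For Krt7 in that line the 2 APH libraries disagreed (0.32 and 1.34 CPM), and no change was called.

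**Figure D3:**
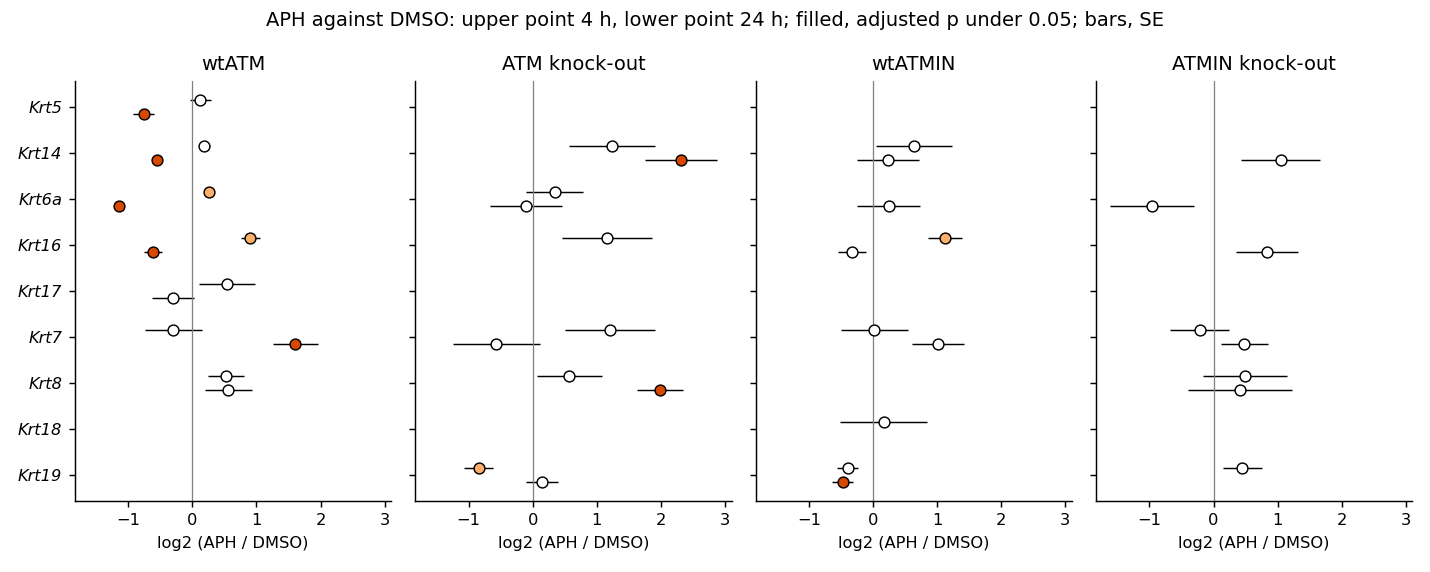
Log2 change from DMSO to APH of each keratin in each line (horizontal axis), 4 h above and 24 h below, with SE bars from edgeR; filled points passed an adjusted p of 0.05, and keratins with 3 or fewer reads in either group are not drawn. In wtATM 4 filled points at 24 h lie left of 0 and Krt7 lies right of it, while in the ATM knock-out line Krt14 and Krt8 lie right of it.

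After 24 h of APH the 4 most abundant of the 9 keratins of wtATM were lower than after 24 h of DMSO, and Krt7 was higher. Of these, Krt6a, Krt14 and Krt16 were themselves called higher in DMSO at 24 h than at 4 h. In wtATM 4 of the 9 were called lower and 1 higher, where 14.3% of all genes fell and 14.4% rose. Krt6a fell from 399 and 402 CPM to 184 and 179, a log2 change of -1.14 ± 0.08 (edgeR adjusted p = 4.42e-14). The basal pair fell too, Krt14 by 0.55 ± 0.08 (edgeR adjusted p = 3.05e-06) and Krt5 by 0.76 ± 0.16 (0.000592) on the log2 scale. Krt16 fell by 0.61 ± 0.14 (0.00096). For these 4 both APH libraries lay below both DMSO libraries. Krt7 rose from 1.38 and 1.57 CPM to 4.49 and 4.49, a log2 change of 1.61 ± 0.35 (0.000641), without overlap. Krt17 and Krt8 did not pass the test, at log2 changes of -0.30 and 0.56, and Krt18 and Krt19 had 1 or 2 reads per group. The Krt8 libraries of APH lay above those of DMSO.

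In the ATM knock-out line 3 keratins rose at 24 h and none fell (15.7% of all genes rose and 12.2% fell). Krt16 had 0 reads in both DMSO libraries and 83 and 88 reads in the APH libraries (5.26 and 5.74 CPM), at least 59.1-fold higher at the 3-read limit over the group (edgeR adjusted p = 1.88e-14). Krt8 rose from 0.96 and 1.09 CPM to 3.61 and 4.57, a log2 change of 1.99 ± 0.36 (edgeR adjusted p = 5.11e-05). Its partner Krt18 had 2 reads in DMSO and 9 in APH, and was not called. Krt14 rose from 0.18 and 0.13 CPM to 0.57 and 1.04 (2.32 ± 0.56, edgeR adjusted p = 0.00188; 0.0729 without replicate 2 of the APH group). For Krt16, Krt8 and Krt14 the APH and DMSO libraries did not overlap. Krt14, with 5 reads in DMSO and 25 in APH, did not reach the filter's minimum of 10 reads, scaled to library size, in 2 of these libraries. It was kept through other groups, so its call within this line supports nothing. Krt19 was 2.28 and 2.19 CPM in DMSO and 2.47 and 2.48 in APH, and was not called.

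Each line of the ATMIN pair had 1 keratin call at 24 h, a count not set apart from the shares of all genes. Krt5, Krt8, Krt17 and Krt18 had at most 9 reads in a group there and could hardly be called. In wtATMIN 1 of the 9 fell and none rose (15.3% of all genes fell, 13.6% rose). It was Krt19, from 9.58 and 9.91 CPM to 6.79 and 7.21, a log2 change of -0.48 ± 0.16 (edgeR adjusted p = 0.0267). The libraries did not overlap, but the adjusted p was 0.072 to 0.148 without any 1 of the 4 libraries, 0.0728 with library-size scaling and 0.137 in DESeq2. In the ATMIN knock-out line 1 rose and none fell (14.3% rose, 15.8% fell). It was also Krt19, with 2 reads in DMSO and 11 in APH, a ratio of 5.12 (95% counting interval 1.42 to 42.3, edgeR adjusted p = 0.0483). With at most 8 reads in any of these libraries, Krt19 was kept through other groups, so this call supports nothing. That call was lost without either DMSO library (adjusted p 0.179 without replicate 1 and 0.16 without replicate 2) and without replicate 2 of the APH group (0.513), as well as without the filter on low counts (0.0794), with the compared groups alone (0.105) and in DESeq2 (0.103). Krt7 was 0.66 and 1.58 CPM in DMSO and 2.30 and 2.01 in APH in wtATMIN, without overlap, and did not pass the test (adjusted p = 0.055). It passed with library-size scaling (0.0404), without the filter (0.0134), with the compared groups alone (0.00521) and without replicate 2 of the DMSO group (0.0137).

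Whether a knock-out line responded differently from its wild-type line was tested as an interaction. At 24 h the APH response of 2 keratins, Krt14 and Krt16, was higher in the ATM knock-out line than in wtATM, and none was lower (2.68% of all genes were higher and 1.23% lower). For Krt14 the responses differed by 2.87 ± 0.56 on the log2 scale (edgeR adjusted p = 0.00144; 0.0708 without replicate 2 of the ATM knock-out APH group). For Krt16 the adjusted p was 3.08e-13, and it stayed at or below 4e-08 in every alternative run. Both genes were called lower than DMSO in wtATM and higher in the ATM knock-out line, Krt14 in the latter on the few reads given above. At 4 h none of the 9 was called between these lines (6.02% of all genes higher, 5.35% lower; 0 keratins at an unadjusted p under 0.05). In the ATMIN pair none was called at 4 h (0.346% of all genes higher, 0.325% lower) or 24 h (1.01% higher, 1.42% lower), and at each time Krt16 and Krt19 had an unadjusted edgeR p under 0.05. DESeq2 called 0 in these 3 comparisons, but not all 9 could be called. It gave no adjusted p for 7 of the 9 keratins in each pair at 4 h. In the ATMIN pair at 24 h it gave none for 4. Some of these differences passed in an alternative. Krt7 in the ATM pair at 24 h was lower in the knock-out response without the filter (adjusted p = 0.0189) and with the compared groups alone (0.0256), and at 4 h it was higher without replicate 1 of the ATM knock-out APH group (0.0358). Krt19 in the ATMIN pair at 24 h was higher with the compared groups alone (0.0494) and without replicate 1 of the knock-out APH group (0.045).

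Early and late APH responses were compared within each line. In wtATM the 24 h response was lower than the 4 h response for Krt14, Krt16, Krt5 and Krt6a and higher for Krt7 (7.24% of all genes lower and 7.87% higher). Krt16, which rose at 4 h and fell at 24 h, differed by -1.51 ± 0.21 (edgeR adjusted p = 1.66e-06). Krt6a differed by -1.40 ± 0.11 (1.06e-11), Krt14 by -0.74 ± 0.12 (3.16e-05) and Krt5 by -0.89 ± 0.23 (0.00737; 0.0562 without replicate 2 of the 24 h DMSO group and 0.0691 in DESeq2). Krt7 differed by 1.90 ± 0.57 (0.0202), and this call was lost without replicate 1 of the 4 h DMSO group (0.287), the 4 h APH group (0.108) or the 24 h DMSO group (0.068). In wtATMIN Krt16 alone was called, at -1.44 ± 0.35 (0.00277; 9.44% of all genes lower, 9.12% higher). In the ATM knock-out line Krt16 (adjusted p = 9.77e-05) and Krt19 (0.99 ± 0.34, adjusted p = 0.0345) were higher and none lower (12.1% of all genes higher, 9.89% lower), the latter lost without any 1 of the 8 libraries (0.0527 to 0.0963), with the compared groups alone (0.076) and in DESeq2 (0.0896). Krt7, Krt8 and Krt18, not called there, each passed on leaving out 1 library (0.0363 to 0.0382). In the ATMIN knock-out line none was called by edgeR (10.8% of all genes higher, 10.3% lower) or DESeq2, which gave no adjusted p for 2. Krt16 alone had an unadjusted edgeR p under 0.05. Its log2 difference was -5.53 without replicate 2 of the 4 h DMSO group.

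**Figure D4:**
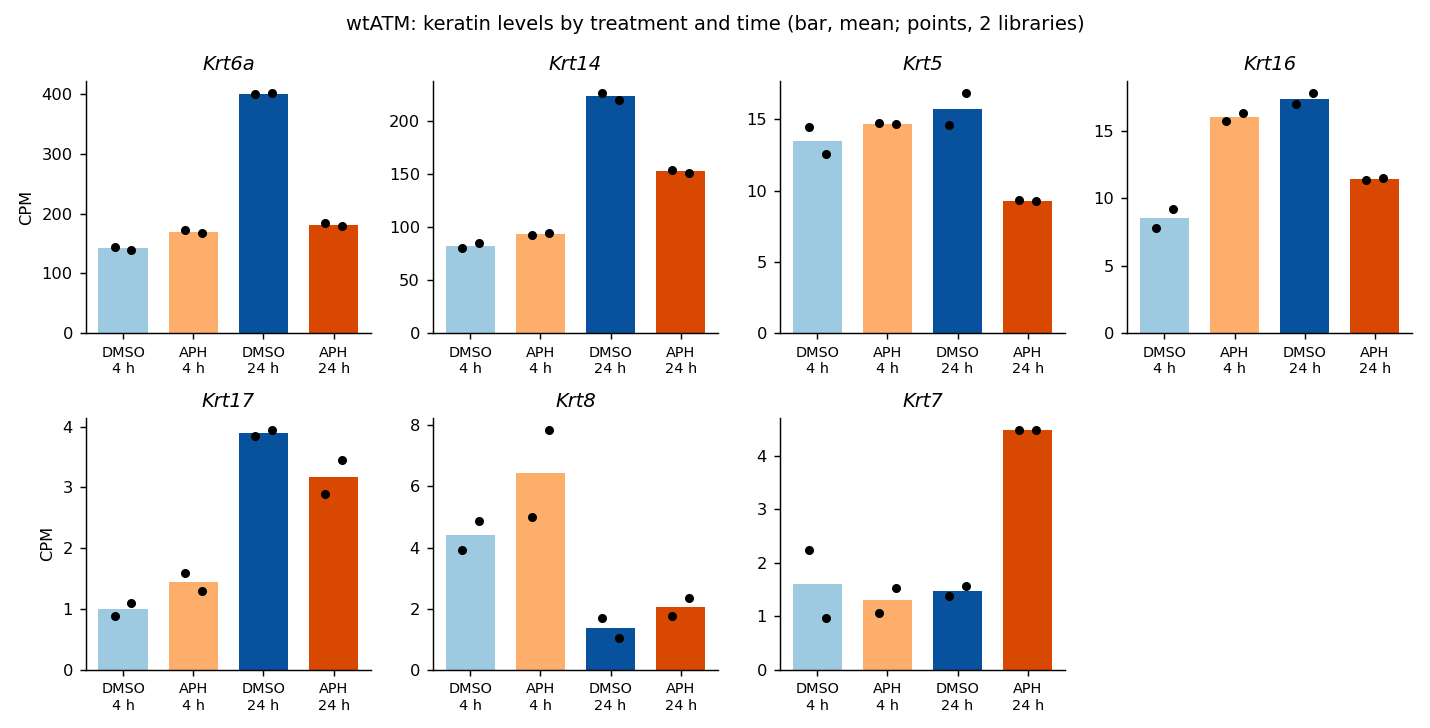
CPM (vertical axes, each from 0) of 7 keratins in wtATM by treatment and time; bars are means and points the 2 libraries of a group. Krt6a and Krt14 are highest after 24 h of DMSO (399 and 402, and 226 and 220 CPM), Krt7 after 24 h of APH, and Krt8 at 4 h.

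Some keratins also moved with time in DMSO alone, as did a large share of all genes. In wtATM 4 keratins rose from 4 h to 24 h and 1 fell (23.1% of all genes rose and 23.3% fell). Krt6a rose 1.50 ± 0.08 on the log2 scale (edgeR adjusted p = 1.98e-17) and Krt14 1.44 ± 0.09 (2.53e-15). Krt16 rose from 7.78 and 9.20 to 16.9 and 17.8 CPM (1.02 ± 0.15, 6.23e-07). Krt5, the type II partner of Krt14, was 14.4 and 12.6 CPM at 4 h and 14.6 and 16.8 at 24 h, and was not called. Krt17 rose 1.96 ± 0.39 (0.000123). Krt8 fell from 3.93 and 4.86 to 1.71 and 1.05 CPM, by 1.67 ± 0.33 on the log2 scale (9.02e-05). For the 5 called keratins the 4 h and 24 h libraries did not overlap, and each call held without any 1 library. Under APH, Krt6a was 172 and 167 CPM at 4 h and 184 and 179 at 24 h, and Krt14 was 92.6 and 94.8, then 154 and 151. Krt16 was 15.7 and 16.3 CPM at 4 h of APH and 11.3 and 11.5 at 24 h, and Krt5 was 14.7 and 14.7, then 9.32 and 9.25.

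Krt19 fell with time in DMSO in each of the other lines. It fell in the ATM knock-out line, where 2 keratins fell and none rose (24.1% of all genes fell, 24.6% rose), from 5.28 and 5.52 to 2.28 and 2.19 CPM, by 1.27 ± 0.22 on the log2 scale (edgeR adjusted p = 1.15e-05). In the ATMIN knock-out line, where 3 rose and 1 fell (23.4% and 23.8% of all genes), it fell from 1.19 and 1.31 CPM (45 reads) to 0.060 and 0.063 (2 reads), a ratio of 20.3 (95% counting interval 5.63 to 168; 6.77e-07). In wtATMIN, where 2 rose and 2 fell (29.1% and 26.3% of all genes), it fell from 11.1 and 15.4 to 9.58 and 9.91 CPM (-0.45 ± 0.16, 0.0132), a call lost without replicate 2 of the 4 h group (0.35) or replicate 1 of the 24 h group (0.0676), with library-size scaling (0.0816) and in DESeq2 (0.083). Krt16 rose in wtATMIN by 1.32 ± 0.26 (4.92e-05), from 1.16 and 1.07 to 2.86 and 2.68 CPM.

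The remaining calls with time rest on few reads. Krt18 fell in wtATMIN from 18 reads to 1 (edgeR adjusted p = 0.00367; 0.0516 without replicate 1 of the 4 h group). Krt6a went from 1 read to 12 in wtATMIN (0.00625; 0.0853 without replicate 1 at 4 h and 0.0697 without replicate 2 at 24 h, 0.0532 in DESeq2) and from 2 to 9 in the ATMIN knock-out line (0.0407; 0.31 without replicate 1 at 4 h and 0.288 without replicate 1 at 24 h, 0.0656 without the filter, 0.101 with the compared groups alone, 0.087 in DESeq2). In the ATMIN knock-out line Krt14 went from 0 reads to 6 (0.00866; 0.0516 and 0.0572 without either 4 h library) and Krt16 from 2 to 10 (0.0238; 0.239 without replicate 1 at 4 h and 0.16 without replicate 2 at 24 h, 0.0677 with the compared groups alone, 0.0661 in DESeq2). Krt16 in the ATM knock-out line went from 5 reads to 0 (0.0185; 0.0723 without replicate 1 at 4 h, 0.0944 and 0.0889 without either 24 h library, 0.0945 with the compared groups alone). None of these genes reached the filter's minimum of 10 reads, scaled to library size, in 2 of the libraries compared. Each was thus kept only with reads of other groups, and these calls support nothing. Time and any difference in handling between the 4 h and 24 h libraries cannot be told apart.

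**Figure D5:**
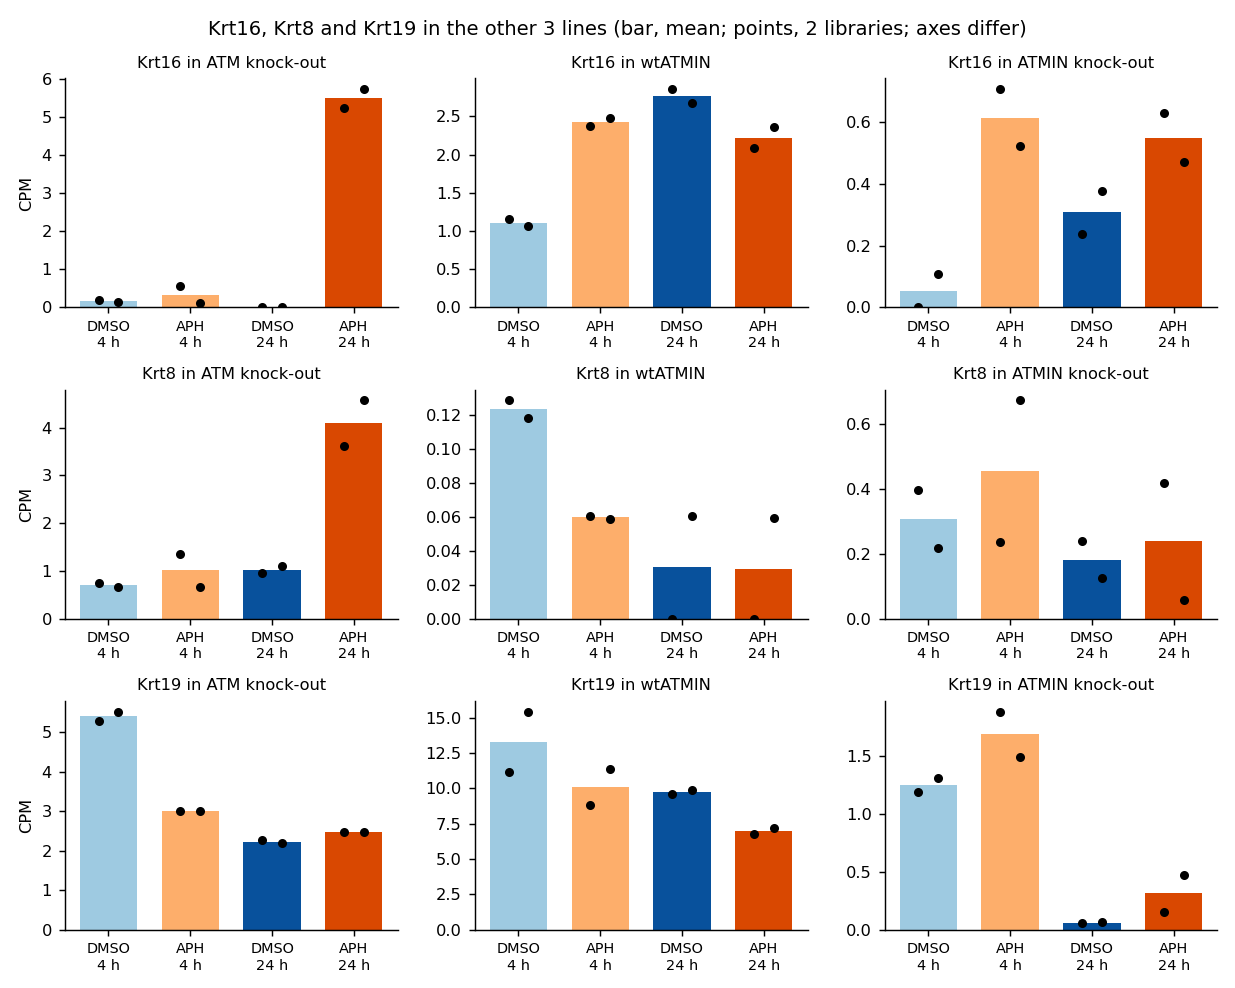
CPM (vertical axes, each from 0 and on its own scale) of Krt16, Krt8 and Krt19 in the 3 lines other than wtATM, by treatment and time; bars are means and points the 2 libraries of a group. Krt16 in the ATM knock-out line is 5.26 and 5.74 CPM after 24 h of APH and listed at 0 after 24 h of DMSO; Krt19 in the ATMIN knock-out line is at most 0.47 CPM in the 24 h libraries.

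The ATMIN knock-out line was compared with wtATMIN in each of the 4 conditions, a contrast that did not choose the genes. Krt19 and Krt16 were lower in the knock-out line in all 4. Of the 9 keratins 4 were lower and 0 higher after 4 h of DMSO, where 23.0% of all genes were lower and 21.9% higher. After 4 h of APH 4 were lower and 1 higher (22.3% and 19.8% of all genes). After 24 h of DMSO 2 were lower and 0 higher (26.2% and 23.4%), and after 24 h of APH 4 were lower and 1 higher (26.8% and 23.8%).

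Krt19 was 1.19 and 1.31 CPM in the knock-out line against 11.1 and 15.4 in wtATMIN after 4 h of DMSO, a log2 difference of -3.41 ± 0.21 (edgeR adjusted p = 9.28e-16). The authors' deposited table gives a shrunken log2 fold change of -3.03 for the same comparison. After 4 h of APH it was 1.89 and 1.50 against 8.81 and 11.4 CPM (-2.56 ± 0.22, 2.54e-12). At 24 h it was 0.060 and 0.063 against 9.58 and 9.91 CPM in DMSO, 2 reads against 381, a ratio of 159 (95% counting interval 43.9 to 1310; 1.11e-17), and 0.16 and 0.47 against 6.79 and 7.21 CPM in APH (-4.48 ± 0.30, 5.01e-15). In no condition did the lines overlap. Krt16 had 2 reads against 36 after 4 h of DMSO, 20.0-fold lower (95% counting interval 5.54 to 165; 4.16e-07). It was lower on the log2 scale by 1.94 ± 0.31 after 4 h of APH (3.62e-06), by 3.14 ± 0.34 after 24 h of DMSO (1.09e-09) and by 1.99 ± 0.31 after 24 h of APH (1.44e-06), again without overlap.

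The other differences between the ATMIN lines were of low messages. Krt14 was lower in the knock-out line at 4 h, with 0 reads against 8 in DMSO (edgeR adjusted p = 0.00269) and 1 against 13 in APH (0.00408; 0.228 without replicate 1 of wtATMIN). Krt18 was lower at 4 h, with 4 reads against 18 in DMSO (0.0466; 0.301 without replicate 1 of wtATMIN, 0.318 without replicate 1 of the knock-out line, 0.0531 with the replicate block, 0.0573 without the filter, 0.227 in DESeq2) and 2 against 21 in APH (0.0164; 0.0743 without replicate 2 of wtATMIN and 0.207 without replicate 1 of the knock-out line). Its partner Krt8 was higher in the knock-out line after 4 h of APH, 13 reads against 2 (0.0191; 0.0784 and 0.0879 without either wtATMIN library and 0.251 without replicate 2 of the knock-out line). After 24 h of APH Krt8 had 9 against 1 (0.0401; 0.245 without replicate 1 of wtATMIN and 0.721 without replicate 1 of the knock-out line, 0.0609 with the compared groups alone, 0.0859 in DESeq2). Also after 24 h of APH, Krt5 had 0 reads against 5 (0.0225; 0.079 without replicate 1 of wtATMIN, 0.104 and 0.0847 without either knock-out library, 0.0637 with the compared groups alone). Krt17 had 0 against 4 (0.0492; 0.0576 with the replicate block, 0.063 without the filter, 0.102 with the compared groups alone, 0.0839 in DESeq2, 0.0915 to 0.167 without any 1 of the 4 libraries). Krt5 and Krt17 passed the filter on low counts through wtATM, which is not part of this comparison, and held 8 and 5 reads over all 16 libraries of the ATMIN pair, so these calls support nothing. Krt8 and Krt14 held at most 9 and 11 reads in any library of the pair. They were likewise kept through other lines, and their calls here carry the same limit. Krt6a and Krt7 passed in no condition, although Krt7 after 24 h of DMSO was higher without replicate 2 of wtATMIN (0.0254). Krt18 after 24 h of APH, not called, was lower with the compared groups alone (0.0438) and without replicate 2 of wtATMIN (0.0389).

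Partners of keratin filaments, 17 of 21 listed genes tested (plakins, desmosome and hemidesmosome components), were followed in the same fits. After 24 h of APH, 8 were called higher and 3 lower in wtATM, where 14.4% of all genes were higher and 14.3% lower, with a median log2 change of 0.36 against 0.0031 over all genes. In ATM knock-out cells 9 were higher and 0 lower (15.7% and 12.2% of all genes; median 0.85 against 0.010). In wtATMIN 9 were higher and 1 lower (13.6% and 15.3%; 0.31 against 0), and in the ATMIN knock-out line 7 and 2 (14.3% and 15.8%; 0.32 against 0). Of the 9 epithelial factors tested, 0 rose and 1 fell in wtATM at 24 h (14.4% and 14.3% of all genes), and 3 rose and 0 fell in the ATM knock-out line (15.7% and 12.2%). Of the 6 keratinocyte differentiation genes tested, 1 rose and 3 fell after 24 h of APH in wtATM (14.4% and 14.3%), and 4 rose and 2 fell from 4 h to 24 h in DMSO (23.1% and 23.3%). Between the ATMIN lines after 24 h of APH, 2 partners were higher and 10 lower in the knock-out line (23.8% and 26.8% of all genes), with a median of -1.02 against -0.0090 over all genes.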

How the data were processed

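RNA-seq libraries were made with the TruSeq RNA kit v2 from 1 µg of TRIzol-extracted RNA, per the labels' protocols. Bowtie2 2.4.0, TopHat2 2.0.13, DESeq2 1.6.3 and the build mm10 are named in the submitters' processing notes; the counting tool, strand setting and annotation release are not given in the sources used here. The deposited table holds raw counts per gene. The authors' deposited comparison tables hold shrunken log2 fold changes with their standard error, p-values, test scores and gene lengths; their treatment codes AT and UT were read as APH and DMSO. A further 120 per-sample columns in those tables were not used. Symbols came from these tables for 16476 genes and from GENCODE M21 for 21380, and 1161 genes had none.

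The counts of all 32 libraries were fitted in 16 groups with edgeR 4.0.16 (R 4.3.3): filterByExpr (18484 genes), TMM scaling, quasi-likelihood tests of 24 contrasts and Benjamini-Hochberg adjustment over all genes of a contrast, called under 0.05. The fit was tested on simulated data for APH against DMSO at 24 h in wtATM, where it recovered 80% of 50 genes changed by 0.5 on the log2 scale and 100% at 1, 2 and 3, with 13 false calls among 18484 genes. Changes were put only into genes averaging more than 50 reads per library. Every gene had the same level in all lines, with its spread taken from the trend over genes. This recovery therefore does not apply to keratins on few reads. Alternatives were library-size and RLE scaling, no filter on low counts, the compared groups alone, a replicate block, DESeq2 1.42.0 and leaving out each library. Counting intervals cover counting error only. Members, marker lists and tests were chosen with earlier results of these data known. Named genes were the 9 members, the 6 other keratins with the highest mean, up to 4 genes of each list by mean CPM, the nearest profiles and the nearest tested neighbours; Trp63, Wt1, Cdh1, Epcam, Itgb4, Col17a1 and vimentin were named with their values known.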

Additional observations from a re-analysis of the deposited data

Results flagged for a closer look

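Responses that differed between lines or times by a test of the difference itself (edgeR interaction contrasts, Benjamini-Hochberg over 18484 genes) involved 6 keratins. Between the ATM lines at 24 h, the APH response of the knock-out line minus that of wtATM was 2.87 (log2) for Krt14 and 10.08 for Krt16. The Krt14 value rests on 5 reads in DMSO and 25 in APH in the knock-out line. The Krt16 value was fitted against a DMSO group with 0 reads, so that its size depends on the prior count.

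Between times, the 24 h response minus the 4 h response in wtATM was -0.74 for Krt14, -1.51 for Krt16, -0.89 for Krt5, -1.40 for Krt6a and 1.90 for Krt7. In the ATM knock-out line it was 8.31 for Krt16, again against 0 reads, and 0.99 for Krt19. In wtATMIN it was -1.44 for Krt16. Krt16 thus had a different response at the 2 times in 3 lines, lower at 24 h in both wild-type lines and higher in the ATM knock-out line. Groups of 2 libraries allowed no search for outlying samples.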

How the results depend on the processing

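Of 56 keratin calls, 32 held in every alternative that gave a value and 24 were lost in at least 1, most of them on few reads; each loss is given beside its result. Summed over lines, the 1 keratin lower after 4 h of APH became 2 with the replicate block (Krt19 in wtATMIN, 0.0456), 0 with the compared groups alone and 1 to 2 on leaving out 1 library. The 2 higher in the knock-out response became 3 with the compared groups alone and 1 to 3 on leaving out 1 library, and the 0 lower became 1 without the filter and 1 with the compared groups alone. The 2 calls higher in the ATMIN knock-out line, both of Krt8 and summed over conditions, became 1 with the compared groups alone and 1 in DESeq2. Krt7 after 4 h of APH in the ATM knock-out line, not called, ran from -0.026 to 2.02 on the log2 scale on leaving out 1 library, its direction reversed without replicate 2 of the APH group (main value 1.21). The median type I share with raw counts was 37.1% for wtATM, 92.6% for wtATMIN and 36.8% for ATMIN knock-out cells, and 84.0% in the ATM knock-out line with the authors' length, chosen after seeing the data. Over all keratin rows, also chosen after seeing the data, it was 37.0%, 61.1%, 66.8% and 33.0% in wtATM, the ATM knock-out line, wtATMIN and the ATMIN knock-out line. The cause of the other changes was not tested. None of 180 recomputed line means moved by more than 1 SD. That SD spans both treatments and both times of a line, so the means could hardly move that far and this says little.

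The replicate numbers did not pair the samples: correlations of deviations ran from -0.14 to 0.070 over 16 comparisons and from -0.21 to 0.17 over all 120 pairs of groups. The replicate block lost 2 of the 56 calls. Summed over the 4 conditions, it left 12 calls of a keratin lower in the ATMIN knock-out line, against 14. Crossing the numbers for the time comparison in wtATMIN, added after seeing the data, left 9 calls higher and 6 lower with time, summed over the 4 lines. DESeq2 gave no adjusted p for 46 tests. Depth limits Krt18 in all lines, and Krt5 and Krt17 outside wtATM.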
